A study of Mus musculus with 8 samples.

Results

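PIWI-interacting RNAs (piRNAs) are small RNAs of the animal germ line that are bound by PIWI proteins. In the mouse testis they silence transposons, and at the pachytene stage of meiosis another, abundant class is made from long precursor transcripts. The precursors are unwound and handed on by RNA helicases, cleaved at the surface of mitochondria, loaded into PIWI proteins and trimmed. Some factors of the pathway lie in granules called nuage. The RNA levels of 9 genes of this pathway are described here, the PIWI genes Piwil1, Piwil2 and Piwil4 and the factors Ddx4, Mov10l1, Pld6, Asz1, Mael and Gtsf1, none of which has a Tudor domain. They were taken by gene symbol from 23235 symbols, and all 9 were present.

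RNA was sequenced from spermatocytes of male C57BL/6 mice that were wild type (WT) or lacked Cnot4, labelled Cnot4-KO and called Cnot4-null here. CNOT4 is a regulatory subunit of the CCR4-NOT complex, which shortens poly(A) tails. Cells were sorted by DNA dye into leptotene and zygotene (LZ) or pachytene and diplotene (PD) spermatocytes, which gives 4 groups of 2 libraries, 8 in all. Cnot4 was floxed and deleted by Stra8-Cre, which is active in germ cells that enter spermatogenesis, and the labels give no allele for the WT mice. The age of the mice is stated in the methods and not in the labels. Values are FPKM, fragments normalized to the length of the transcript and to the mapped reads of the library, so levels can be compared between genes per length. The files hold no reads per gene, so no counting error was computed. Pairs of values are given as replicate 1 and replicate 2. Cnot4 itself was at 36.0 and 34.9 FPKM at LZ and 76.6 and 73.1 at PD in WT, against 43.2 and 34.6 at LZ and 65.9 and 53.5 at PD in Cnot4-null. The deletion removes an exon and cannot be seen in a value per gene, so the genotypes were taken from the labels.

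Changes were tested with limma on log2(FPKM + 1) in a fit of all 8 libraries, for the 15899 genes above 1 FPKM in at least 1 library. A gene is said to have risen or fallen where its p, adjusted over these genes within a comparison, was under 0.05. With 2 libraries on each side, the smallest p of an exact test is 0.333. Of the 9 genes, 8 passed the filter. Piwil4 was below 1 FPKM in every library and was not tested.

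The labelled cell types were checked with marker genes. Markers of pachytene and diplotene cells (Hist1h1t, Ccna1, Pgk2, Ldhc, Acr and Adam3) summed to 11493 and 10597 FPKM in WT PD and to 5113 and 1711 in Cnot4-null PD, against 47.8 to 288 in the LZ libraries, with Ldhc the most abundant of them in each library. Between the genotypes at PD, the log2 fold change of all 6 was negative, and 1 of them fell. Markers of spermatocytes of all stages (Sycp1, Sycp3 and Syce1) summed to 1502 and 1513 FPKM in WT PD but to 913 and 531 in Cnot4-null PD, and 2 of 3 fell, while Sycp1, at 150.04 and 127 FPKM in Cnot4-null PD against 113 and 112 in WT PD, did not pass the test. Both sets were therefore present in each PD library, and their sums were lower in Cnot4-null PD and lowest in replicate 2.

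Markers of several other cell types were higher in the Cnot4-null PD libraries than in WT PD. The 6 Leydig cell markers (Star, Cyp11a1, Cyp17a1, Hsd3b1, Insl3 and Lhcgr) summed to 10021 and 22204 FPKM there, most of it Insl3 (9669 and 21607), against 115 and 7.07 in WT PD and 9.89 to 19.0 at LZ, and 6 of 6 rose between the genotypes at PD. Insl3 alone made up 1.08 and 3.19% of the summed FPKM of these libraries. Spermatid markers (Prm1, Prm2, Tnp1, Tnp2 and Tssk6), led by Prm1 (7592 and 2949 FPKM), summed to 15562 and 7008 in Cnot4-null PD against 381 and 233 in WT PD and 704 to 4033 at LZ, and 5 of 5 rose. Peritubular myoid markers summed to 63.9 and 293 FPKM against 3.89 and 2.39 in WT PD, led by Acta2 (42.8 and 209), and 5 of 5 rose. Of these markers, Myh11, Des and Cnn1 were above 1 FPKM only in Cnot4-null PD. So were the Leydig markers Hsd3b1 and Lhcgr, the macrophage marker Csf1r and the Sertoli cell marker Gata4. Such genes were tested only through the group in which they are high, so their rises are no support for a difference. Macrophage markers summed to 24.3 and 108 FPKM against 2.75 and 1.60, led by Lyz2 (11.1 and 40.8), and 3 of 6 rose, while WT LZ replicate 1 was at 35.7. Spermatogonial markers summed to 312 and 373 FPKM, led by Uchl1 (202 and 232), against 67.0 and 82.8 in WT PD, led by Id4 (49.3 and 70.9). Of the 7, 6 rose, and Id4, at 35.4 and 22.8 FPKM in Cnot4-null PD, did not pass the test. The LZ libraries were at 353 to 554 in this sum. The leptotene and zygotene markers, led by Stra8 in Cnot4-null PD, summed to 252 and 178 FPKM against 20.9 and 19.5 in WT PD and 462 to 851 at LZ, and 3 of 5 rose. Of the Sertoli cell markers, Fshr was at 0 in both Cnot4-null PD libraries and Amh in replicate 1, and the 7 listed summed there to 23.9 (led by Cst12) and 13.8 FPKM (led by Gata4), against 9.005 and 37.9 in WT PD. Of the 5 tested, 2 rose. At LZ this sum was 103 and 97.1 in WT and 10.5 and 11.8 in Cnot4-null, most of it Cst12, and 0 of 5 passed the test between the genotypes. Endothelial markers stayed at or below 5.90 FPKM in sum, led in Cnot4-null PD by Cdh5, the only gene tested, which rose. Cdh5 was above 1 FPKM only in Cnot4-null PD, so it was tested only through the group in which it is high. Across the tested genes, the duplicates had a Spearman correlation of 0.892 in Cnot4-null PD, 0.968 in WT PD, 0.947 in Cnot4-null LZ and 0.941 in WT LZ, a description over genes, which are not independent. In these bulk libraries, fewer cells of a type and less RNA per cell cannot be told apart, and the part of other cells in the results at PD was not tested.

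**Figure D1:**
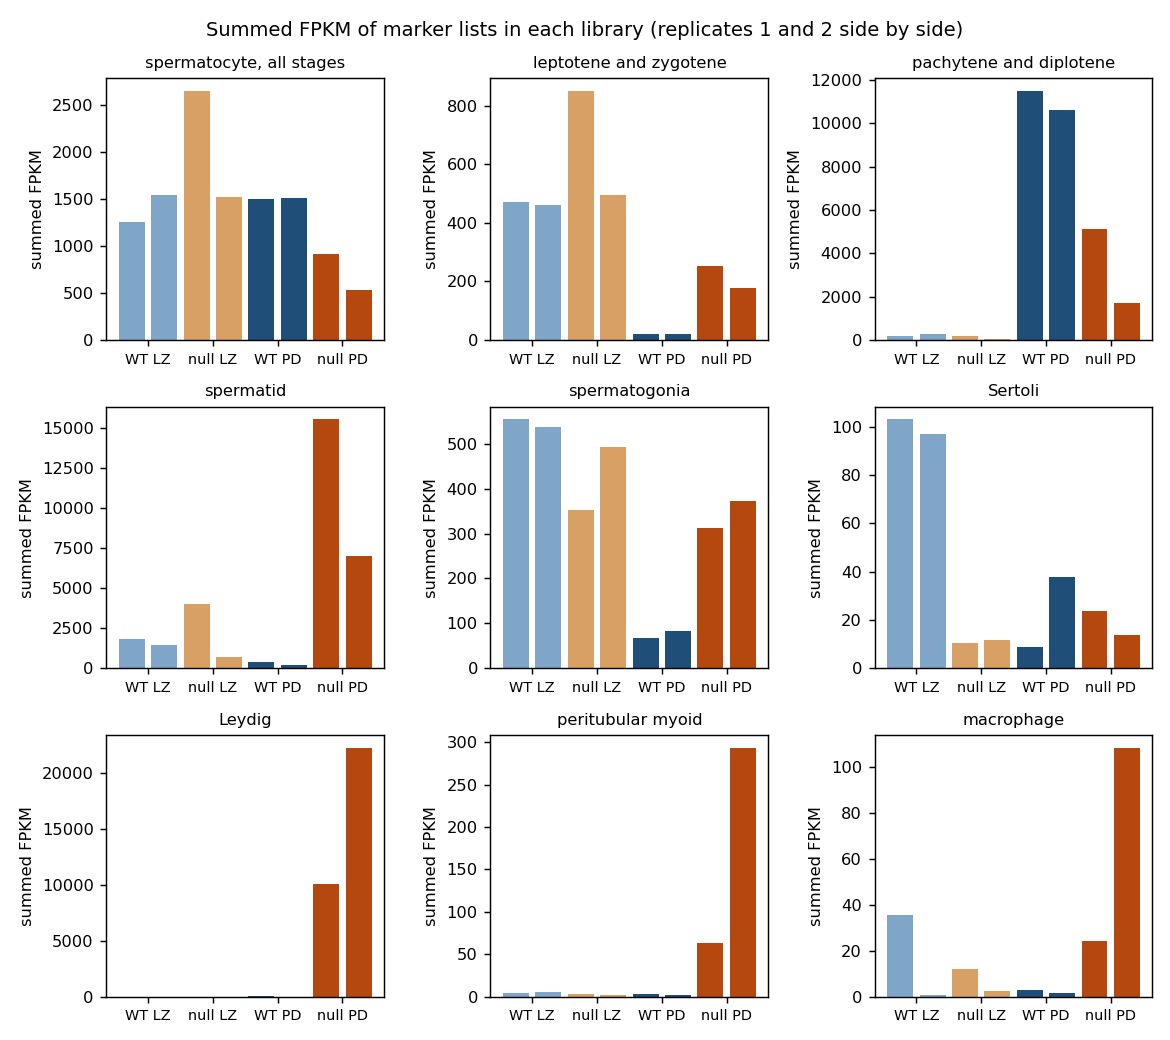
Summed FPKM of 9 marker lists (vertical axes, each starting at 0) in the 2 libraries of each group (bars, replicate 1 on the left). The Leydig, spermatid and peritubular myoid sums are highest in the Cnot4-null PD libraries, where the pachytene and diplotene sum is 5113 and 1711 FPKM against 11493 and 10597 in WT PD.

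Promoters were taken from RefSeq for 8 of the 9 genes, with Piwil2 not in the table. The table is on GRCm38.p6, and each of the 10 windows of 250 bases before a start site matched mm9, the build of the data, exactly and once. MYBL1, a transcription factor of pachytene spermatocytes, is known to drive piRNA precursors and several genes of the pathway, and MYB proteins recognise a core of AACNG, so these letters were searched on both strands, where the other strand reads CNGTT. They occur in 8 of the 10 windows, and in 74.2% of 32851 promoter windows of this length, with a median of 1 match. The windows of Gtsf1 and Asz1 hold none. Gtsf1 also rose from LZ to PD in WT, but its window overlaps the gene and is not printed. The window of Mov10l1, which fell from LZ to PD, holds 2, those of Piwil4 hold 3 and 1, and a second window of Pld6 holds 2. A match describes the letters and is neither a bound site nor a cause. The sequences below, 5′ to 3′ on the gene's strand, belong to 4 genes that rose from LZ to PD in WT and whose window lies outside the gene in GENCODE, and capitals mark AACNG or CNGTT. The Piwil1 window (chr5:129241871-129242120, + strand) holds 4 matches, and 7.03% of all windows hold 4 or more. The Mael window (chr1:168168876-168169125, - strand) holds 2, the Ddx4 window (chr13:113442519-113442768, - strand) 1, and the Pld6 window (chr11:59601160-59601409, - strand) 1.
Piwil1: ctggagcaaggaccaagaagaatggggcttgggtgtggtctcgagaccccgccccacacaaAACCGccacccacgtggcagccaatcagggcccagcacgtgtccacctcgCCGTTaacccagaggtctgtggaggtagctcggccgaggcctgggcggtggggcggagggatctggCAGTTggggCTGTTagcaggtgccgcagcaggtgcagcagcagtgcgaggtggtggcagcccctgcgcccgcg
Mael: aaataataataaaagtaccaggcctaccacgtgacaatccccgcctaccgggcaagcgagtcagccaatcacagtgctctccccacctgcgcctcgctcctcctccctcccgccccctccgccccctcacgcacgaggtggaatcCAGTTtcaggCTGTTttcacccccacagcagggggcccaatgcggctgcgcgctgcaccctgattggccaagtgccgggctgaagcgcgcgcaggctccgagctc
Ddx4: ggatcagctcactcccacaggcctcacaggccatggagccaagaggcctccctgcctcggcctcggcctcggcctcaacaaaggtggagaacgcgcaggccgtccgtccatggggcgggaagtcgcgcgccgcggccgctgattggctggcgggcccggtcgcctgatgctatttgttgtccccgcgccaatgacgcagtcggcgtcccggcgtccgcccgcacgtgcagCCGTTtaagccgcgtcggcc
Pld6: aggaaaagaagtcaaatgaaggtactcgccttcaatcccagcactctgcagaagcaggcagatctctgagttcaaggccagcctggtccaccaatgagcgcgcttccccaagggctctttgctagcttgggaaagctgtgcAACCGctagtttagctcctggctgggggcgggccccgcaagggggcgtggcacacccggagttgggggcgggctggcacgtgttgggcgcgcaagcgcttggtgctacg
Mybl1 itself was at 2.22 and 3.03 FPKM at LZ and 9.39 and 10.3 at PD in WT, against 5.35 and 3.24 at LZ and 8.60 and 3.38 at PD in Cnot4-null. It rose from LZ to PD in WT (log2 fold change 1.59, SE 0.41, adjusted p = 0.0123), and its difference between the genotypes at PD did not pass the test (-0.74, SE 0.41, adjusted p = 0.160). This difference rested on the scaling, since it passed the test after quantile normalization (-1.81, adjusted p = 0.0215) and with rescaled libraries (-1.13, adjusted p = 0.0331), and it ranged from -1.31 to -0.17 with 1 library left out. The rise in WT did not pass without WT LZ replicate 1 (adjusted p = 0.0750), WT PD replicate 1 (0.0620) or WT PD replicate 2 (0.0771).

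The levels of the 9 genes spanned a wide range. In WT PD the order from highest to lowest mean FPKM was Mael (1336), Gtsf1 (1219), Ddx4 (297), Piwil1 (222), Pld6 (51.4), Asz1 (40.2), Piwil2 (34.6), Mov10l1 (16.3) and Piwil4 (0.0241), and no neighbours overlapped between the 2 libraries. In WT LZ the order was Mael (301), Gtsf1 (168), Ddx4 (152), Mov10l1 (70.1), Asz1 (50.1), Piwil2 (34.9), Pld6 (10.4), Piwil1 (8.94) and Piwil4 (0.224). There the values of Gtsf1 and Ddx4 overlapped, and so did those of Pld6 and Piwil1. The same order held in Cnot4-null LZ with no overlap between neighbours. In Cnot4-null PD the order was Gtsf1 (807), Mael (492), Ddx4 (148), Piwil1 (125), Mov10l1 (45.8), Asz1 (44.7), Piwil2 (34.6), Pld6 (34.0) and Piwil4 (0.385). Here 4 pairs of neighbours overlapped, which were Gtsf1 and Mael, Ddx4 and Piwil1, Mov10l1 and Asz1, and Piwil2 and Pld6. Thus Piwil1 moved from near the bottom at LZ to the upper part of the order at PD in both genotypes, and Mov10l1 moved the other way in WT.

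**Figure D2:**
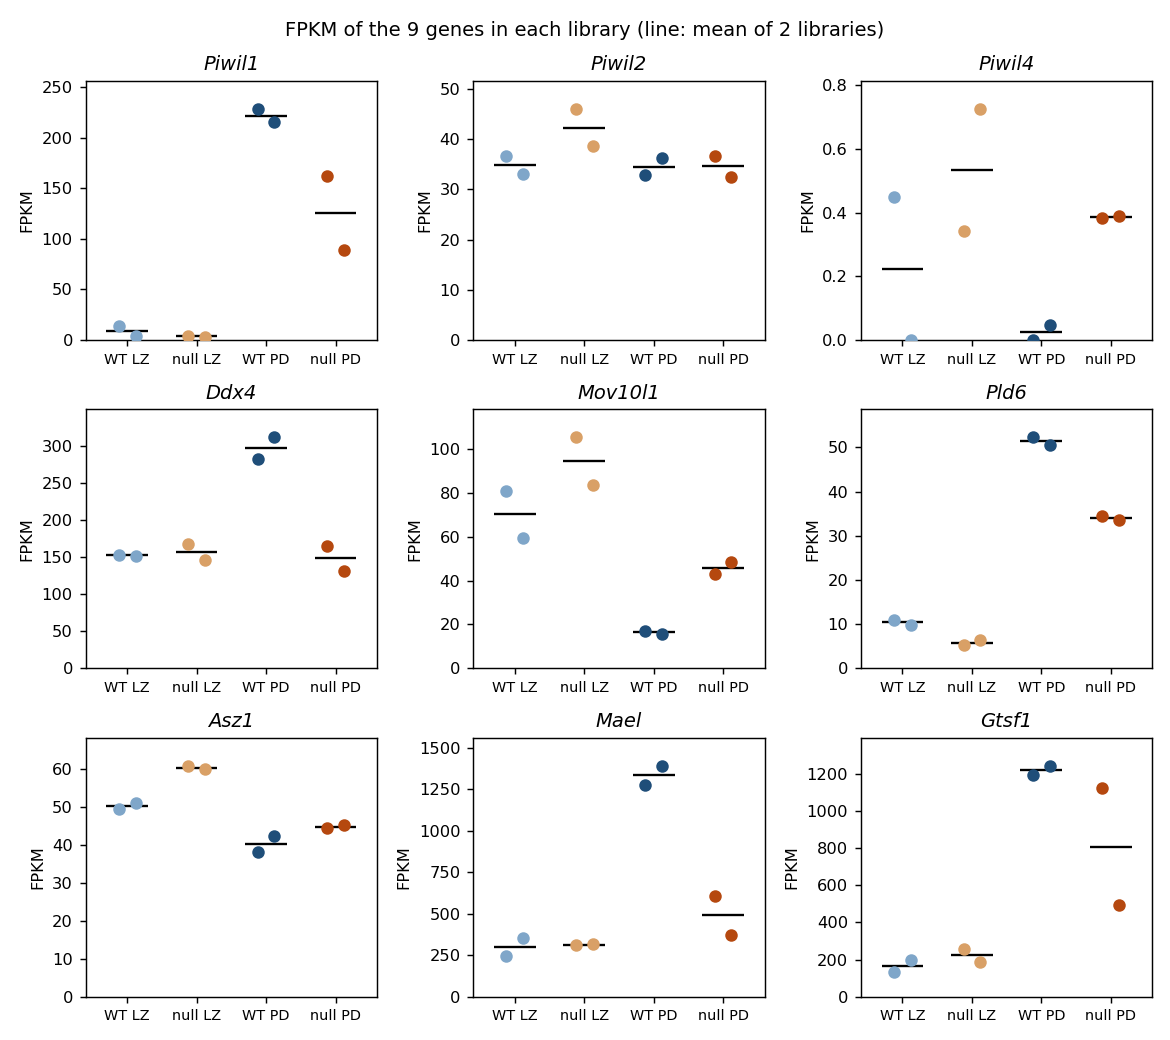
FPKM of each of the 9 genes (vertical axes, starting at 0) in the 4 groups. Points are the 2 libraries of a group and lines their mean, and Piwil4 is below 1 FPKM throughout while Mael and Gtsf1 have means of 1336 and 1219 FPKM in WT PD.

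The PIWI proteins cleave or silence the RNAs that their piRNAs pair with. Piwil1 (chr5:129242121-129261349, + strand of mm9), which encodes MIWI, the PIWI protein of pachytene spermatocytes and round spermatids, was in WT at 14.0 and 3.86 FPKM at LZ and at 229 and 215 at PD. In Cnot4-null it was at 4.31 and 2.52 FPKM at LZ and at 162 and 88.6 at PD. Each PD library was thus above each LZ library in both genotypes. The mean was 24.8 times higher at PD in WT and 36.7 times higher in Cnot4-null. On the log2 scale the rise was 4.71 in WT (SE 0.54, adjusted p = 0.000253) and 4.80 in Cnot4-null (SE 0.54, adjusted p = 0.000725). The size in WT rested on the LZ libraries, since it was 5.52 without WT LZ replicate 1 and 3.89 without replicate 2, and both passed the test. The difference between these rises was 0.10 (95% interval -1.68 to 1.88, adjusted p = 0.930), and it turned to -0.35 with libraries rescaled to share a median. At PD the Cnot4-null pair lay below the WT pair, with a log2 fold change of -0.88 (95% interval -2.14 to 0.38) that did not pass the test (adjusted p = 0.194). It was -1.32 without Cnot4-null PD replicate 1 and -0.45 without replicate 2.

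Piwil2 (chr14:70772287-70828901, - strand) encodes MILI, which is present from spermatogonia to spermatids and makes piRNAs in a cycle of cleavage. Its FPKM was 36.7 and 33.2 at LZ and 32.9 and 36.2 at PD in WT, against 46.1 and 38.6 at LZ and 36.7 and 32.5 at PD in Cnot4-null. All 8 values lay between 32.5 and 46.1 FPKM, and no comparison passed the test. Its log2 fold change from LZ to PD was -0.01 in WT (SE 0.19, 95% interval -0.46 to 0.43), which became 0.36 with rescaled libraries. Between the genotypes at PD it was 0.00 (95% interval -0.45 to 0.45), which became -0.14 after quantile normalization and -0.42 with rescaled libraries. Piwil4 (chr9:14500674-14545177, - strand), which encodes MIWI2, the PIWI protein of fetal male germ cells, was listed at 0.448 and 0 FPKM at LZ and 0 and 0.0482 at PD in WT, against 0.342 and 0.726 at LZ and 0.383 and 0.388 at PD in Cnot4-null. It was thus near the limit of detection in all groups.

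The genes with the pattern most like each PIWI gene were found among 8057 genes by the root mean square difference of log2(FPKM + 1), after each gene's own mean was subtracted, over the 8 libraries. For Piwil1 they were Fam181a (0.219), Wdr63 (0.325), which encodes a dynein chain of the axoneme, and Iqub (0.421). Fam181a was at 72.6 and 63.8 FPKM in WT PD, against 49.3 and 34.6 in Cnot4-null PD. For Piwil2 they were Mfap3 (0.0629), Pdia3 (0.0964), an enzyme of the endoplasmic reticulum, and Brd2 (0.0975), a reader of acetylated histones. Mfap3 was between 7.32 and 11.7 FPKM in the 8 libraries. Piwil4 was below the mean of 5 FPKM that the search required.

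Ddx4 and Mov10l1 encode RNA helicases of the pathway. They moved in opposite directions from LZ to PD in WT and between the genotypes at PD. Ddx4 (chr13:113388541-113442518, - strand), the mouse vasa homolog and a core component of nuage, was at 153 and 151 FPKM at LZ and 282 and 311 at PD in WT, against 168 and 146 at LZ and 165 and 132 at PD in Cnot4-null. Only the WT PD libraries stood apart, above the other 6. In WT it rose from LZ to PD by 0.96 on the log2 scale (SE 0.19, adjusted p = 0.00384), which became 0.46 after quantile normalization and 1.35 with rescaled libraries. In Cnot4-null its log2 fold change between the stages was -0.09 (95% interval -0.54 to 0.36, adjusted p = 0.728). At PD the Cnot4-null mean was 0.499 times that of WT, a log2 fold change of -1.01 (SE 0.19, adjusted p = 0.00495), which became -0.64 after quantile normalization and -1.43 with rescaled libraries. It was called in each of 16 other settings. The change of the genotype effect between the stages was -1.05 (SE 0.27, adjusted p = 0.0278), and 8 of 15 settings called it.

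Mov10l1 (chr15:88813339-88885582, + strand), which binds piRNA precursors and is needed for their cleavage, was at 80.7 and 59.5 FPKM at LZ and 16.9 and 15.8 at PD in WT, against 105 and 83.4 at LZ and 43.0 and 48.6 at PD in Cnot4-null. It was highest at LZ in both genotypes, and both Cnot4-null PD values lay between those of WT PD and WT LZ. From LZ to PD it fell by 2.02 on the log2 scale in WT (SE 0.22, adjusted p = 0.000218) and by 1.02 in Cnot4-null (SE 0.22, adjusted p = 0.00909). Without Cnot4-null LZ replicate 1 the fall in Cnot4-null was -0.85 and no longer passed the test (adjusted p = 0.0619). At PD it was 2.81 times higher in Cnot4-null than in WT by the means, a log2 fold change of 1.43 (SE 0.22, adjusted p = 0.00212), and it was called in each of 16 settings. The change of the genotype effect between the stages was 1.00 (SE 0.31, adjusted p = 0.0494), and 4 of 15 settings called it. It did not pass the test after quantile normalization (0.70, adjusted p = 0.191) or with rescaled libraries (0.58, adjusted p = 0.164).

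Pld6 and Asz1 encode proteins of the outer mitochondrial membrane. Pld6 (chr11:59597399-59601147, - strand), homolog of the fly nuclease Zucchini, which cuts piRNA precursors, was at 11.03 and 9.78 FPKM at LZ and 52.3 and 50.4 at PD in WT, against 5.21 and 6.30 at LZ and 34.5 and 33.6 at PD in Cnot4-null. It was higher at PD in both genotypes, and at each stage the Cnot4-null pair was below the WT pair. The rise from LZ to PD was 2.201 on the log2 scale in WT (SE 0.19, adjusted p = 8.57e-05) and 2.38 in Cnot4-null (SE 0.19, adjusted p = 0.000365). Between the genotypes at PD it fell by 0.58 (SE 0.19, adjusted p = 0.0385), and 9 of 16 settings called this. The adjusted p was 0.176 without WT PD replicate 1, 0.147 without WT PD replicate 2 and 0.0509 without Cnot4-null PD replicate 2. Asz1 (chr6:18000964-18059061, - strand), a scaffold with ankyrin repeats, kept within 38.2 to 60.8 FPKM in all 8 libraries. It was at 49.3 and 50.9 FPKM at LZ and 38.2 and 42.2 at PD in WT, against 60.8 and 59.8 at LZ and 44.3 and 45.2 at PD in Cnot4-null. No comparison of Asz1 passed the test. Its log2 fold change from LZ to PD was -0.31 in WT (adjusted p = 0.153), which became 0.07 with rescaled libraries, and -0.42 in Cnot4-null (adjusted p = 0.0751). In Cnot4-null the stage change passed the test without either Cnot4-null PD library (adjusted p = 0.0387 and 0.0314), and so did that in WT (adjusted p = 0.0361 and 0.0368). With no filter on genes both passed (adjusted p = 0.0138 in WT and 0.0101 in Cnot4-null), and after quantile normalization that in Cnot4-null did (0.0481).

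Mael and Gtsf1, with the highest mean FPKM of the 9 genes in each group, encode cofactors that act with PIWI proteins. Mael (chr1:168131516-168168875, - strand), which encodes Maelstrom, a nuage protein needed for transposon silencing, was at 247 and 356 FPKM at LZ and 1278 and 1393 at PD in WT, against 311 and 317 at LZ and 611 and 374 at PD in Cnot4-null. All 4 PD values were above the 4 LZ values, with WT PD far above Cnot4-null PD. In WT it rose from LZ to PD by 2.17 on the log2 scale (SE 0.29, adjusted p = 0.000530), and in Cnot4-null its log2 fold change of 0.61 did not pass the test (SE 0.29, adjusted p = 0.125). The latter was 0.25 without Cnot4-null PD replicate 1 and 0.96 without replicate 2. At PD the Cnot4-null mean was 0.369 times that of WT, a log2 fold change of -1.48 (SE 0.29, adjusted p = 0.00542). It was -1.83 without Cnot4-null PD replicate 1 and -1.13 without replicate 2. Of 16 settings 15 called it, and with only the libraries compared the adjusted p was 0.0614. The change of the genotype effect between the stages was -1.56 (SE 0.41, adjusted p = 0.0287), and 9 of 15 settings called it.

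Gtsf1 (chr15:103232836-103260901, - strand), a zinc finger protein that enhances cleavage by PIWI proteins, was at 135 and 201 FPKM at LZ and 1195 and 1244 at PD in WT, against 257 and 189 at LZ and 1122 and 492 at PD in Cnot4-null. The 2 Cnot4-null PD libraries differed widely, with replicate 1 near the WT PD values. The rise from LZ to PD was 2.88 on the log2 scale in WT (SE 0.40, adjusted p = 0.000658) and 1.75 in Cnot4-null (SE 0.40, adjusted p = 0.0110). The latter was 1.16 without Cnot4-null PD replicate 1 and 2.34 without replicate 2. It did not pass without Cnot4-null LZ replicate 2 (1.53, adjusted p = 0.0831) or with only the libraries compared (adjusted p = 0.0630). Between the genotypes at PD the log2 fold change was -0.71 (95% interval -1.66 to 0.23, adjusted p = 0.167). This rested on the library and the scaling used, since it was -1.31 (adjusted p = 0.0204) without Cnot4-null PD replicate 1, -0.12 (adjusted p = 0.777) without replicate 2 and -1.14 (adjusted p = 0.0246) with rescaled libraries. The change of the genotype effect was -1.13 (SE 0.57, adjusted p = 0.166), and it passed the test without Cnot4-null PD replicate 1 (-1.73, adjusted p = 0.0249) and with rescaled libraries (-1.58, adjusted p = 0.0433).

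The comparison of PD with LZ in WT asks how RNA levels change as meiotic prophase proceeds. In WT, 6 of the 8 tested genes changed, against 57.8% of all genes tested. Piwil1, Gtsf1, Pld6, Mael and Ddx4 rose (5 of 8, against 21.6% of all genes) and Mov10l1 fell (1 of 8, against 36.2%). The median log2 fold change of the 8 was 1.56, and that of all tested genes was -0.32 (-0.09 after quantile normalization and -0.12 with rescaled libraries). For all genes it was -0.43 with a mean of at least 5 FPKM and 0 with no filter. Relative to the median of all genes, the change was 5.02 for Piwil1, 3.20 for Gtsf1, 2.52 for Pld6, 2.49 for Mael, 1.28 for Ddx4 and -1.70 for Mov10l1. In Cnot4-null, 4 of the 8 changed between the stages, against 46.0% of all genes. Piwil1, Pld6 and Gtsf1 rose (3 of 8, against 27.8%) and Mov10l1 fell (1 of 8, against 18.2%). Of all genes, 4423 rose and 2893 fell, against 3044 and 4867 after quantile normalization and 4305 and 3184 with rescaled libraries. With only the libraries compared 2692 rose and 1263 fell, and both counts also moved with 1 library left out. The median of the 8 was 0.26 against 0.19 for all genes (-0.26 and 0.14 under the other scalings). For all genes it was -0.15 with a mean of at least 5 FPKM and 0 with no filter. Relative to the median of all genes, the change was 4.62 for Piwil1, 2.19 for Pld6, 1.56 for Gtsf1 and -1.20 for Mov10l1. Mael and Ddx4 passed the test of the stage change in WT and not in Cnot4-null, a difference that the interaction tests directly.

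The comparison of the genotypes within a stage asks which RNAs differ where Cnot4 was deleted. At LZ, limma called 0 of the 8 genes and 15 of all genes (0.0943%), and at an unadjusted p under 0.05 the counts were 1 of 8 and 1013. The gene was Pld6, with a log2 fold change of -0.76 (SE 0.19, adjusted p = 0.598). The difference of Piwil1 was -0.98, with overlapping values (SE 0.54, adjusted p = 0.861), and it was -0.17 without WT LZ replicate 1 and -1.80 without replicate 2. The other 6 lay between 0.04 and 0.43.

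At PD, 4 of the 8 genes differed between the genotypes, against 53.1% of all genes. Ddx4, Mael and Pld6 fell in Cnot4-null (3 of 8, against 11.5% of all genes) and Mov10l1 rose (1 of 8, against 41.6%). These shares rested on the scaling, the filter and the libraries. Of the 15899 genes 1830 fell and 6619 rose, against 3977 and 2982 after quantile normalization and 3631 and 5520 with rescaled libraries. With 1 library left out, 411 to 2878 fell. The number that rose moved with the libraries as well, and with only the libraries compared 5186 rose and 902 fell. The median log2 fold change was -0.65 for the 8 genes and 0.66 for all tested genes. After quantile normalization these medians were -0.50 and -0.05, and with rescaled libraries -1.07 and 0.42. Among genes with a mean of at least 5 FPKM, which all 8 have, 1541 of 9348 fell and 3678 rose, with a median of 0.30. With no filter 1284 of 23235 fell and 5840 rose, with a median of 0.17. The relative values that follow use 0.66. Relative to the median of all genes, the change was -2.14 for Mael, -1.67 for Ddx4, -1.55 for Piwil1, -1.38 for Gtsf1 and -1.24 for Pld6. It was -0.66 for Piwil2, -0.51 for Asz1 and 0.77 for Mov10l1. The directions of the 4 that passed the test were the same under both other scalings, but Pld6 did not pass after quantile normalization (adjusted p = 0.0585). In the same libraries the Leydig and spermatid markers rose, with Hsd3b1 and Lhcgr tested only through Cnot4-null PD. Of other lists, 6 of 7 spermatogonial and 3 of 5 leptotene and zygotene markers rose. Of the markers of spermatocytes of all stages 2 of 3 fell, and the sum of the pachytene and diplotene markers was 5113 and 1711 FPKM against 11493 and 10597. The part of these markers' cells in the differences was not tested.

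**Figure D3:**
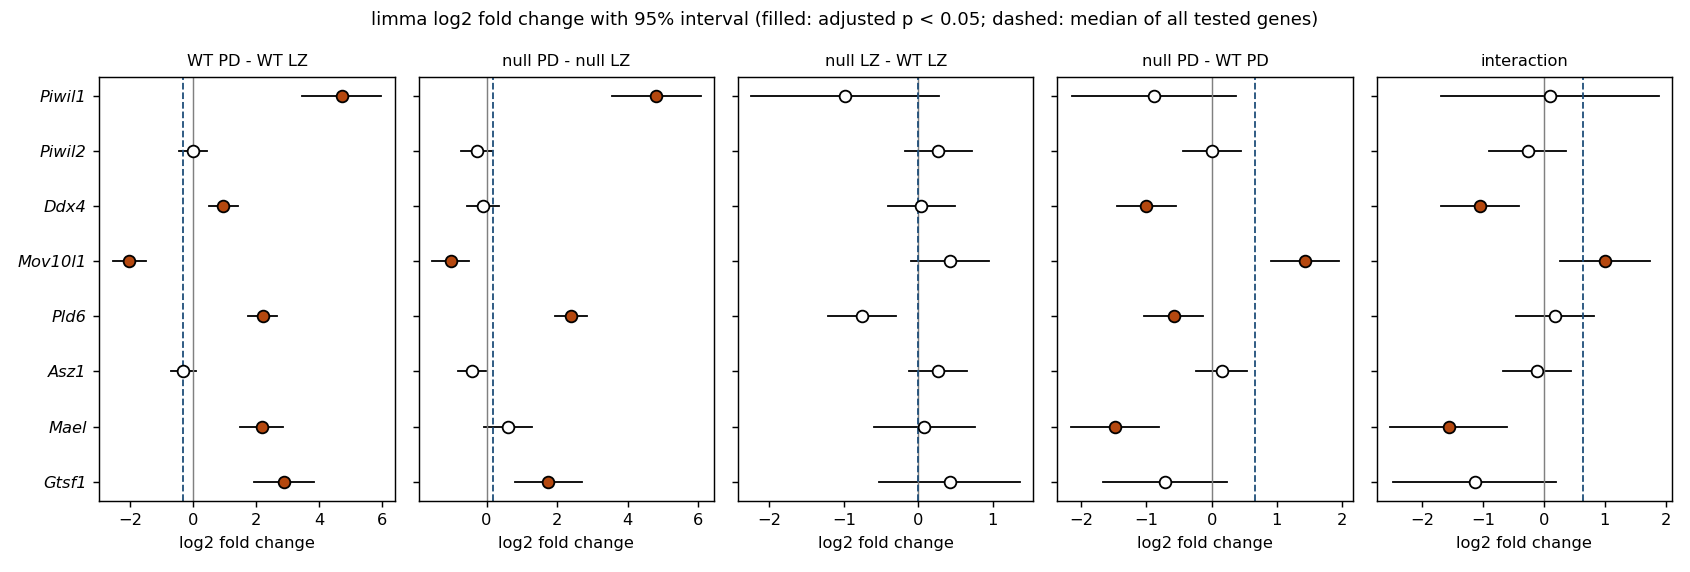
Log2 fold changes of the 8 tested genes (points) with 95% intervals (lines) in the 4 comparisons and in the change of the genotype effect from LZ to PD (interaction). Filled points passed the test, no point is filled at LZ between the genotypes, and the dashed line is the median of all tested genes, 0.66 in Cnot4-null PD against WT PD.

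Whether the effect of the genotype differs between the stages was tested as an interaction. It was called for 3 of the 8 genes, against 30.0% of all genes, with Mov10l1 higher (1 of 8, against 26.0%) and Ddx4 and Mael lower (2 of 8, against 3.97%). Of all genes, 4139 were higher and 631 lower, against 1594 and 1878 after quantile normalization and 3279 and 1903 with rescaled libraries, and 53 to 2073 were lower with 1 library left out. The number that was higher also moved widely in these fits. The median over the 8 was -0.19, and over all tested genes 0.64. After quantile normalization these medians were -0.29 and -0.07, and with rescaled libraries -0.62 and 0.38. Among genes with a mean of at least 5 FPKM, 2772 of 9348 were higher and 562 lower, with a median of 0.33. With no filter 2975 of 23235 were higher and 393 lower, with a median of 0.16. Relative to 0.64 the values were -1.69 for Ddx4, -2.20 for Mael and 0.36 for Mov10l1. The change itself was -0.66, -1.365 and 0.70 for these genes after quantile normalization, and -1.49, -2.01 and 0.58 with rescaled libraries. The number called rested on several libraries. It was 0 without WT LZ replicate 1, without either Cnot4-null LZ library and without either WT PD library. For Ddx4 the adjusted p over these fits and the others that left out 1 library ranged from 0.00705 to 0.114, for Mael from 0.00966 to 0.111 and for Mov10l1 from 0.0449 to 0.158. The interaction uses the libraries of all 4 groups, and each comparison of the stages shares libraries with each comparison of the genotypes. The values are therefore set side by side, and no relation between comparisons was computed.

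**Figure D4:**
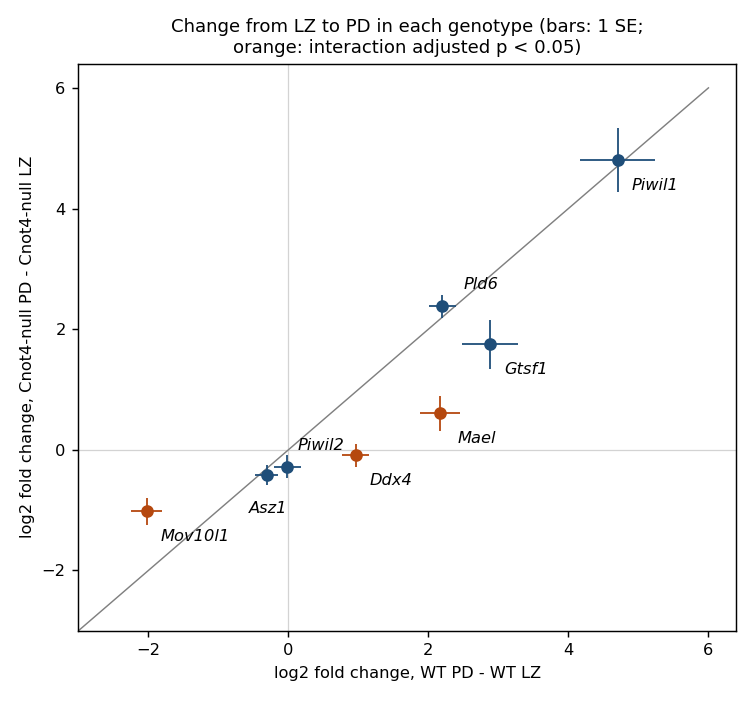
Log2 fold change from LZ to PD in WT (horizontal) and in Cnot4-null (vertical) for the 8 tested genes, with bars of 1 SE and the line of equal change. Ddx4, Mael and Mov10l1 (orange) passed the interaction test, and Piwil1 lies near the line at 4.71 and 4.80.

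The rest of the pathway was read from a list of 26 genes, of which 24 were in the data and tested. Btbd18 and Spocd1 have no value. Henmt1 is listed under its older symbol 4921515J06Rik, and Gtsf2 was read from BC048502, which lies next to Gtsf1 at chr15:103269396-103278890 and is not given as a synonym in the annotation. In WT, 11 of the 24 rose from LZ to PD and 8 fell, against 21.6% and 36.2% of all genes, and in Cnot4-null 9 rose and 5 fell, against 27.8% and 18.2%, shares that turned around after quantile normalization. Between the genotypes limma called 0 of 24 at LZ. At an unadjusted p under 0.05 the counts were 2 of 24 and 1013 of all 15899 genes. At PD 9 of 24 rose, a share near the 41.6% of all genes, and 7 fell, against 11.5%. Dnmt3l is among these 9 and among the 9 that rose between the stages in Cnot4-null, and was tested only through its Cnot4-null PD values. The medians at PD were -0.38 for the 24 genes and 0.66 for all genes, the latter moving with the filter as given above. After quantile normalization they were -0.39 and -0.05, and with rescaled libraries -0.80 and 0.42. In the interaction 6 of the 24 were called, against 30.0% of all genes.

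The transcription factor TCFL5 acts on pachytene piRNA loci together with MYBL1. Tcfl5 was at 49.8 and 36.1 FPKM at LZ and 270.4 and 294 at PD in WT, against 43.5 and 51.6 at LZ and 123 and 64.4 at PD in Cnot4-null. It rose from LZ to PD in WT (2.71 on the log2 scale, SE 0.32, adjusted p = 0.000307), and it was lower in Cnot4-null than in WT at PD (-1.65, SE 0.32, adjusted p = 0.00537). Tudor proteins bind methylated arginines of PIWI proteins and build the granules. Of 9 genes in this group, 5 fell in Cnot4-null PD against WT PD and 0 rose, against 11.5% and 41.6% of all genes. These shares moved with the scaling and the filter as given above. Tdrd6, a scaffold of the chromatoid body, showed the widest stage change, from 0.637 and 2.001 FPKM in WT LZ to 112 and 114 in WT PD. In Cnot4-null it was at 0.487 and 0.473 FPKM at LZ and at 57.4 and 38.2 at PD. Between the genotypes at PD its log2 fold change was -1.25 (SE 0.34, adjusted p = 0.0181). The others that fell were Tdrd7 (-1.06), Tdrd12 (-0.90), Tdrd1 (-0.82) and Tdrd5 (-0.61), and 4 of 9 did not pass. Without WT PD replicate 1, and likewise without replicate 2, none of these 5 genes passed the test (adjusted p from 0.0648 to 0.183). Without Cnot4-null PD replicate 2, Tdrd7 alone of the 5 did. Of the fits without an LZ library, those without either Cnot4-null LZ library lost Tdrd1 and Tdrd12 (adjusted p from 0.0625 to 0.0638), the fit without replicate 2 of that group lost Tdrd5 (0.0502), and those without either WT LZ library lost Tdrd12 (0.0557 and 0.0552). With only the libraries compared Tdrd1, Tdrd5, Tdrd7 and Tdrd12 did not pass the test (adjusted p from 0.0540 to 0.106). With no filter on genes Tdrd1, Tdrd6 and Tdrd12 did not (0.0522 to 0.0846). Tdrd6 missed it with a pseudocount of 0.1 (0.0635) and Tdrd1 with no trend (0.0517). Rnf17, Stk31, Tdrkh and Tdrd9 had log2 fold changes from -0.73 to 0.25. With rescaled libraries Rnf17 (-0.93), Stk31 (-1.16) and Tdrkh (-0.67) passed the test, and Tdrkh did so after quantile normalization (-0.77).

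The ends of piRNAs are trimmed by PNLDC1 and methylated by HENMT1. From LZ to PD in WT, and between the genotypes at PD, the 2 genes moved in opposite directions. Pnldc1 was at 17.3 and 22.9 FPKM at LZ and 4.66 and 4.66 at PD in WT, against 10.2 and 12.2 at LZ and 12.1 and 13.5 at PD in Cnot4-null. It rose in Cnot4-null at PD (1.28, SE 0.23, adjusted p = 0.00371), but after quantile normalization the value was 0.37 and did not pass. Henmt1 was at 14.2 and 14.0 FPKM at LZ and 34.7 and 40.1 at PD in WT, against 8.14 and 12.2 at LZ and 16.8 and 16.3 at PD in Cnot4-null, and fell by 1.13 between the genotypes at PD (SE 0.23, adjusted p = 0.00667). Without WT PD replicate 2 its adjusted p was 0.0633. Fkbp6, a co-chaperone in the loading of PIWI proteins, had high levels at LZ. It was at 382 and 384 FPKM at LZ and 33.4 and 28.2 at PD in WT, against 294 and 276 at LZ and 133 and 140.2 at PD in Cnot4-null. At PD it was 4.43 times higher in Cnot4-null by the means (2.12 on the log2 scale, SE 0.17, adjusted p = 0.000227). Like Mov10l1, it was highest at LZ and lowest in WT PD, with Cnot4-null PD between them.

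Of 3 genes of transposon silencing, 3 rose in Cnot4-null PD against WT PD, and so did 3 of 5 paralogs and other factors, while 41.6% of all genes rose. Of the silencing genes, Dnmt3l was above 1 FPKM only in Cnot4-null PD. It was tested only through the group in which it is high, so its rise is no support for a difference. Tex15, needed for silencing and for meiotic recombination, was at 88.7 and 83.2 FPKM at LZ and 1.78 and 1.22 at PD in WT, against 102 and 79.7 at LZ and 25.7 and 40.4 at PD in Cnot4-null. Its rise at PD between the genotypes was 3.74 on the log2 scale (SE 0.27, adjusted p = 0.000168). Morc1 (1.74) and Dnmt3l (1.23) rose as well, from 2.16 and 1.07 to 7.79 and 7.30 FPKM and from 0.962 and 0.480 to 2.54 and 3.48. After quantile normalization Dnmt3l turned to -0.22 and Morc1, at 0.44, did not pass, and neither passed without WT PD replicate 2 (adjusted p = 0.0942 for Dnmt3l and 0.0623 for Morc1). With a pseudocount of 0.1 Dnmt3l was at 1.97 and did not pass the test (adjusted p = 0.101). Mov10, the paralog of Mov10l1, was at 1.18 and 0.612 FPKM in WT PD, against 9.33 and 9.74 in Cnot4-null PD (2.49, SE 0.28, adjusted p = 0.000584), and the difference was 1.31 after quantile normalization. Gtsf1l, a paralog of Gtsf1, was at 16.3 and 11.1 FPKM in WT PD, against 287 and 101 in Cnot4-null PD (3.56, SE 0.53, adjusted p = 0.00173), with 6.53 to 15.02 FPKM at LZ. The difference was 2.82 without Cnot4-null PD replicate 1 and 4.31 without replicate 2. Of the remaining genes, Gpat2 (0.86) and Wdr77 (0.91), the partner of the arginine methyltransferase Prmt5, rose, while Prmt5, Exd1, BC048502 and Mybl1 did not pass the test. Exd1 (-1.05), like Mybl1, passed it after quantile normalization (-2.09) and with rescaled libraries (-1.44). After quantile normalization and with rescaled libraries Gpat2 was at 0.55 and 0.45, and Wdr77, at 0.53 and 0.51, did not pass. Without WT PD replicate 2 the adjusted p was 0.0638 for Gpat2 and 0.0906 for Wdr77, and without replicate 1 it was 0.0627 for Gpat2.

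**Figure D5:**
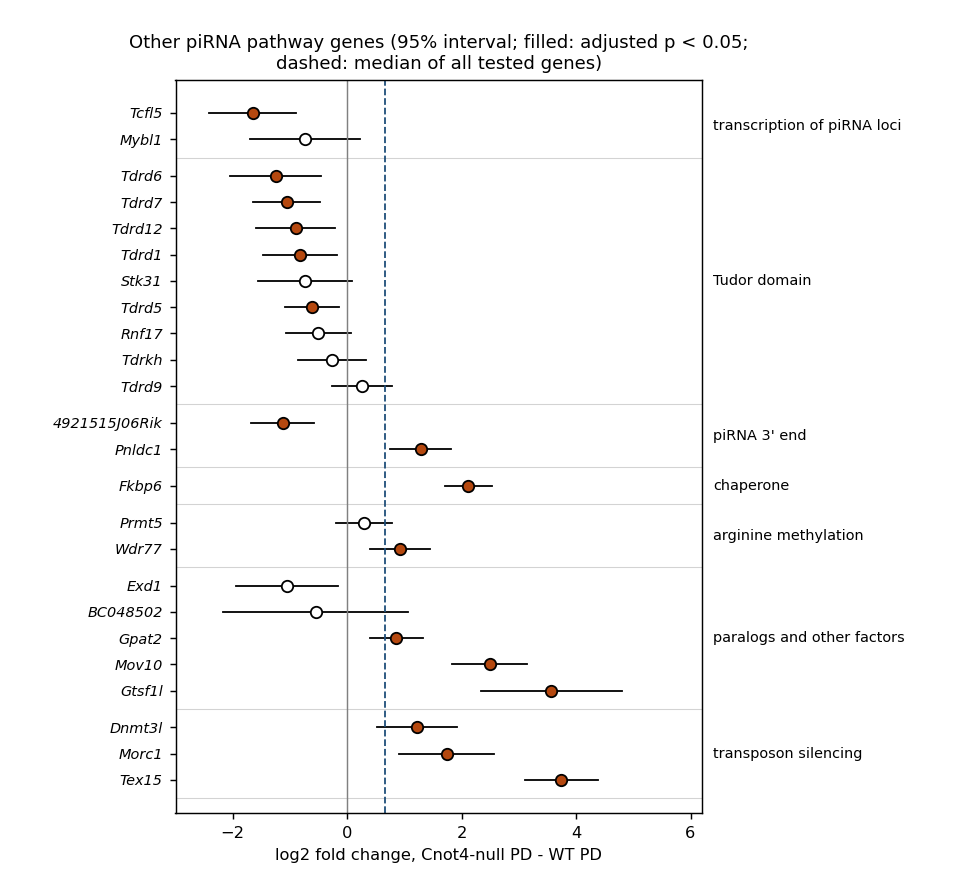
Log2 fold changes between Cnot4-null PD and WT PD (horizontal axis) of 24 other genes of the pathway, grouped by role, with 95% intervals, filled points for genes that passed the test and the median of all tested genes (0.66) as a dashed line. Filled points lie to the left of 0 for 5 Tudor genes, and furthest to the right for Tex15 at 3.74.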

How the data were processed

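The data are RNA-seq values of sorted LZ and PD spermatocytes from WT and Cnot4-null mice, with 2 libraries in each of 4 groups. The authors mapped trimmed reads to mm9 with TopHat2 2.1.1, kept unique reads and computed FPKM with Cufflinks 2.2.1 on UCSC gene models, and the deposited FPKM are given per symbol and library. The methods describe Smart-Seq2 libraries and the labels TruSeq libraries from Trizol RNA, and which was used was not determined. The authors state the total reads of each library, and the files hold no reads per gene, so no counting error was computed.

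Genes above 1 FPKM in at least 1 library (15899 of 23235) were analysed as log2(FPKM + 1) with limma 3.58.1 in R 4.3.3. Group means were fitted to all 8 libraries with 4 residual degrees of freedom and moderated with eBayes with a trend. Two-sided tests were used, with Benjamini-Hochberg adjustment over all tested genes in each of 5 contrasts. Relative values subtract the median of all tested genes. The procedure was tested on simulated data. Other steps ran in Python 3.11.15 with pandas 2.3.3, numpy 2.4.6 and scipy 1.17.1, and plots were drawn with matplotlib 3.10.9.

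The alternatives were no filter, a mean FPKM of at least 5, a pseudocount of 0.1, quantile normalization, rescaling to the same median, no trend, only the libraries compared, a replicate block, and each library left out in turn. The genes named are the 9 genes, those of a list of 26 other pathway genes that were called at PD between the genotypes or in the interaction or were needed to describe their group, Cnot4, cell type markers, and the 3 genes most like Piwil1 and Piwil2. That search left out genes with a mean under 5 FPKM and symbols that start with Mir, Snor or Gm or end in Rik. The genes and lists were chosen with earlier results of these data known. Gene positions come from GENCODE on mm9 and promoters from RefSeq on GRCm38.p6, placed on mm9 by exact match of 250 bases. Rhox5, a Sertoli cell marker, has no value, and Emr1 and 4930528F23Rik stand for Adgre1 and Meiob.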

Additional observations from a re-analysis of the deposited data

Results flagged for a closer look

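For 9 genes of the pathway the effect of the genotype differed between the stages by limma's test of the difference itself (2 libraries per group). These are 3 of 8 and 6 of 24 tested genes, a share near the 30.0% of all genes, so the count is not a result about the pathway. Among the genes first described, the change of the genotype effect from LZ to PD was -1.05 on the log2 scale for Ddx4 (SE 0.27, adjusted p = 0.0278), -1.56 for Mael (SE 0.41, adjusted p = 0.0287) and 1.00 for Mov10l1 (SE 0.31, adjusted p = 0.0494). Of 15 other settings, 8 called Ddx4, 9 Mael and 4 Mov10l1, and none of the 3 passed without WT LZ replicate 1, either Cnot4-null LZ library or either WT PD library. After quantile normalization Ddx4 (-0.66) and Mov10l1 (0.70) did not pass, and with rescaled libraries Mov10l1 (0.58) did not. Of the other pathway genes the change was -1.81 for Tcfl5 (SE 0.46, adjusted p = 0.0253), whose FPKM at PD was 270.4 and 294 in WT and 123 and 64.4 in Cnot4-null.

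The remaining genes had positive values. The change was 3.96 for Gtsf1l (SE 0.74, adjusted p = 0.00946), 3.68 for Tex15 (SE 0.38, adjusted p = 0.00169) and 2.95 for Mov10 (SE 0.40, adjusted p = 0.00306). It was 2.54 for Fkbp6 (SE 0.25, adjusted p = 0.00147) and 2.07 for Pnldc1 (SE 0.32, adjusted p = 0.00503). Relative to the median of all tested genes, which moved with the filter as given above, these 5 values were 3.32, 3.04, 2.31, 1.90 and 1.43. That of Tcfl5 was -2.45. Tex15, Mov10, Fkbp6 and Pnldc1 passed the test in each fit that left out 1 library, but after quantile normalization Pnldc1 was at 1.17 and missed it (adjusted p = 0.0614). Gtsf1l was at 3.21 without Cnot4-null PD replicate 1 and 4.71 without replicate 2, and missed it without Cnot4-null LZ replicate 2 (adjusted p = 0.0526) and without WT PD replicate 2 (0.0543). Tcfl5 missed it without any of the LZ libraries or the WT PD libraries (adjusted p from 0.0550 to 0.102). At PD the Leydig markers summed to 10021 and 22204 FPKM and the spermatid markers to 15562 and 7008 in Cnot4-null. Tex15, Mov10, Fkbp6 and Pnldc1 were lower in WT PD than in WT LZ, and so were the leptotene and zygotene marker Stra8 and the spermatogonial marker Uchl1, whose values in the same test were 3.86 and 5.04. It called 2 of 5 leptotene and zygotene and 5 of 7 spermatogonial markers, all higher. Stra8 and Uchl1 had the largest values of their lists. Of the markers not called, Id4, which rose from LZ to PD in WT (2.90), was at -1.14 and Meiob at -0.03. Prdm9, Mei1 and Nanos3 had positive values. The part of these markers' cells in the differences was not tested.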

How the results depend on the processing

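Of 632 values of the 8 tested genes under other settings, 567 kept their direction and side of the threshold, 35 no longer passed it, 12 newly passed it and 18 turned direction. Of 871 values of the other pathway genes, taken where they had passed the test, 745 kept both, 125 no longer passed and 1 turned. The files hold no reads per gene, so no counting error was computed, and a fit that leaves out 1 library assumes that the lone library of its group varies like the other groups.

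At PD between the genotypes, 4 of the 8 genes were called, 2 with only the libraries compared, which leaves fewer samples, and 3 to 5 with 1 library left out. In the interaction 3 were called, 1 with no filter on genes, 1 after quantile normalization and 0 to 4 with 1 library left out. Of the other pathway genes, 14 were called between the stages in Cnot4-null, against 9 with only the libraries compared and 9 to 14 with 1 library left out (9 without Cnot4-null LZ replicate 1). At PD 16 were called, and 6 to 20 with 1 library left out (10 without WT PD replicate 1 and 6 without replicate 2). In the interaction 6 were called, against 11 after quantile normalization, 15 with rescaled libraries and 4 to 15 with 1 library left out (15 without Cnot4-null PD replicate 1). With a replicate block, which pairs libraries only by their number, 3 and 2 of the 8 genes and 16 and 7 of the others were called at PD and in the interaction.

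Directions turned only for values that did not pass the test, except Dnmt3l at PD (-0.22 after quantile normalization). With rescaled libraries the stage change in WT became 0.36 for Piwil2 and 0.0675 for Asz1, the difference at PD -0.42 for Piwil2 and -0.27 for Asz1, and the interaction -0.35 for Piwil1 and -0.26 for Pld6. After quantile normalization Piwil2 was at -0.14 at PD. With 1 library left out, the ranges were -0.72 to 0.91 for Piwil1 in the interaction, -0.0846 to 0.0568 for Piwil2 between the stages in WT and -0.0825 to 0.0857 at PD, -0.249 to 0.0722 for Ddx4 between the stages in Cnot4-null and -0.0582 to 0.142 at LZ, and -0.18 to 0.35 for Mael at LZ. Over all genes at PD, 6619 were higher and 1830 lower, against 2982 and 3977 after quantile normalization and 5520 and 3631 with rescaled libraries. In the interaction these were 4139 and 631, against 1594 and 1878, and 3279 and 1903. Where not stated, the cause was not tested.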
